A study of Mus musculus with 32 samples.

Results

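The amino acid transporter families described here are the genes whose symbols begin with Slc1a, Slc3a, Slc6a, Slc7a, Slc36a or Slc38a followed by a number, with Slc38a4 left out. The choice rests on the symbols alone and gave 57 genes of the 54532 in the authors' deposited table. By family these are 7 Slc1, 2 Slc3, 19 Slc6, 15 Slc7, 4 Slc36 and 10 Slc38 genes. RNA was measured in 32 libraries, each made with the SMART-seq v4 kit from 1 mouse egg at metaphase II or 1 embryo of 2 cells, to compare material without and with the Trp53 gene, which encodes the transcription factor p53. Per the labels' protocols, females were superovulated and embryos were cultured in KSOM medium, and all mice were of a mixed background.

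The libraries fall into 6 groups. Eggs were 3 labelled Trp53 KO and 3 labelled WT. Embryos at the early 2-cell stage were 6 labelled Trp53 MZ-KO and 8 labelled WT, and those at the late 2-cell stage were 6 of each label. The knockout allele lacks exons 2 to 10 of Trp53 after excision by Cre from the Ddx4 promoter, which is active in the germ line. MZ-KO embryos came from knockout mothers and knockout fathers, so by their labels they lack both the mother's and their own gene product. The WT controls were Trp53 flox/flox and thus carried the floxed allele without the excision. Early embryos were taken between 28 and 32 hours after the ovulation hormone hCG, and late ones at 48 hours. The number of mothers behind each group is not given in the labels, so the p-values reflect how single eggs or embryos varied, and some of these may share a mother.

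Amino acid transporters are membrane proteins that carry amino acids into cells, out of cells or between compartments. Slc3 proteins are heavy chains that do not carry amino acids themselves but bring Slc7 light chains to the cell surface. Slc1 members carry glutamate or small neutral amino acids, Slc6 members carry amino acids, amines, taurine or creatine together with sodium and chloride, and Slc36 and Slc38 members carry neutral amino acids at the cell surface or the lysosome. In the mouse egg and cleavage embryo, the glycine transporter encoded by Slc6a9 is known for loading glycine to regulate cell volume. Amino acids also signal through mTORC1 at the lysosome, and their shortage is read by the kinase GCN2 and the transcription factor ATF4.

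Library scale lay between 7180000 and 27330000 reads (median 18245000), and 6088 to 9745 genes reached FPKM 1 in a library. Trp53 itself was measured at 6.33, 8.45 and 9.81 FPKM (lowest, median, highest) in eggs labelled KO and at 6.16, 7.16 and 10.3 FPKM in WT eggs. It was at 0.311, 0.856 and 1.1 FPKM in early embryos labelled MZ-KO, against 2.6, 6.29 and 9.29 FPKM in WT early embryos. In late embryos it was at 1.48, 2.62 and 5.39 FPKM where labelled MZ-KO and at 0.557, 2.95 and 7.09 FPKM in WT. Trp53 values in eggs and in late embryos therefore overlap between genotypes and do not show the labelled deletion, while those of the early embryos do not overlap. KO and MZ-KO are used below as the labels give them. Egg and oocyte markers summed to 1180 to 2225 FPKM over the egg libraries and to 45.6 to 114 FPKM over the late embryos. Markers of the 2-cell embryo summed to 104 to 329 FPKM in late MZ-KO embryos and to 209 to 627 FPKM in late WT embryos. Of 12 cumulus and granulosa cell markers, Ptx3 was listed at 0 in every library, and the sum stayed at or below 1.76 FPKM in eggs and early embryos. It reached 5.8 to 10 FPKM in late MZ-KO embryos and 8.63 to 15.3 FPKM in late WT embryos, where 2 of the 12 reached FPKM 1. Most of that late sum was Amhr2, at a mean of 5.79 FPKM (SD 1.33) in MZ-KO and 7.7 FPKM (SD 2.36) in WT embryos. Nr5a2 followed at 1.77 FPKM (SD 0.331) in MZ-KO and 3.8 FPKM (SD 0.524) in WT embryos. The 4 sperm markers summed to 7.6 to 13.5 FPKM in late MZ-KO embryos and 10.1 to 28.7 FPKM in late WT embryos, and to at most 1.9 FPKM before. Prm1 alone had a late mean of 8.8 FPKM (SD 2.48) in MZ-KO and 15.5 FPKM (SD 6.69) in WT embryos. The 5 blood and immune markers summed to 0.93 to 6.97 FPKM in late MZ-KO embryos and 0.036 to 4.18 FPKM in late WT embryos, with Cd3e listed at 0 in both. Of these, Cd74 had a late mean of 2.7 FPKM (SD 2.56) in MZ-KO and 0.82 FPKM (SD 1.36) in WT embryos. The part of these cell types in the late stage values was not tested. WT early library 3 stood apart, with a median Spearman correlation of 0.808 with its group.

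Promoters are shown for 4 members that the results turn on. They are RefSeq sequences of build GRCm38.p6, printed 5′ to 3′ on the gene's own strand and cut before the first transcribed base. Capitals mark matches to TGATGNAA, the C/EBP-ATF response element through which ATF4 acts, on either strand. Slc7a11, encoding the cystine and glutamate exchanger, was highest in eggs and fell at both steps. Slc7a6 and Slc1a4 differed between late embryos of the 2 genotypes, and Slc1a1 appeared in late embryos of both.
Slc7a11 (chr3:50443615-50443863, minus strand): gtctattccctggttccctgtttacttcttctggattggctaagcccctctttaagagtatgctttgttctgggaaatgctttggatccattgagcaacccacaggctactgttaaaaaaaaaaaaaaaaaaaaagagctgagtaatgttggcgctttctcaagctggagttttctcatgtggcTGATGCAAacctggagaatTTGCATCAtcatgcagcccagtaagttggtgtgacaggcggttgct
Slc7a6 (chr8:106168604-106168853, plus strand): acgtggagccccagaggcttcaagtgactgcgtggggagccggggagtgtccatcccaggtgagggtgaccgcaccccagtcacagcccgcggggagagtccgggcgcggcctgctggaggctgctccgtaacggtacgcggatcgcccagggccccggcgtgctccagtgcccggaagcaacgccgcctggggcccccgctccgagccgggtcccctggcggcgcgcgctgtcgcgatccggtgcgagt
Slc1a4 (chr11:20332714-20332963, minus strand): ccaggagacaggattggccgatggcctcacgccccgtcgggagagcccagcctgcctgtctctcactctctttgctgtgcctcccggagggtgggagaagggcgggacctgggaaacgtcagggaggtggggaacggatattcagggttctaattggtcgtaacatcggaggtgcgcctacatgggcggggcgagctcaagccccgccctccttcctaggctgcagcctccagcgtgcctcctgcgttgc
Slc1a1 (chr19:28834885-28835048, plus strand): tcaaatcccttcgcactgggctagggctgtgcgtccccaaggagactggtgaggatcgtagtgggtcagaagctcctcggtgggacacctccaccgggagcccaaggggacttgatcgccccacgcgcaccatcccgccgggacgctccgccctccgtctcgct

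The Slc7a11 window holds the element once on each strand. Over the 250 bases before each listed start, TGATGNAA was found in 3 of the 40 members with a listed promoter, namely Slc6a21, Slc7a11 and Slc7a7, and in 3.45% of all 32851 promoters. TGACNNNGC, the antioxidant response element, was found in 7 of the 40 members and in 10.2% of all promoters. One of the 7 was Slc7a6, at a listed start other than the one shown. TCACGTGA, the element bound by the lysosomal regulator TFEB, was found in none of the 40 members and in 0.785% of all promoters. Both strands were searched, none of the motifs found in the printed windows overlapped another, and a match is a description of letters and not of binding.

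Of the 57 members, 6 were listed at 0 in every library. Another 6 never reached 20 reads. A member was counted as detected in a group when at least 1 library of every 2 had 20 reads, and 36 members were detected in at least 1 group while 9 reached 20 reads more rarely. The number detected was 19 in KO eggs and 23 in WT eggs, 27 in MZ-KO early embryos and 30 in WT early embryos, and 30 in MZ-KO late embryos and 27 in WT late embryos. The authors' FPKM divides by the genomic span of a gene, introns included, and 14 members reached FPKM 1 in any library. Differences are therefore given on 2 scales. The first, log2(FPKM + 1), takes genes that reach FPKM 1 in a number of libraries equal to the size of the smallest group compared. The second, log2(RPM + 1), takes genes with 20 recovered reads in that many libraries, where RPM stands for reads recovered from the FPKM steps and scaled to a common library size. Calls are limma tests over all genes of a scale, at a p below 0.05 after Benjamini-Hochberg adjustment, and both scales understate the change of low genes. Slc3a2, Slc7a5, Slc7a11 and Slc6a9 are named whatever their values. Slc7a6, Slc1a1, Slc1a5 and Slc6a15 came in by their calls or levels in these data. Other members are named after their values were seen.

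**Figure D1:**
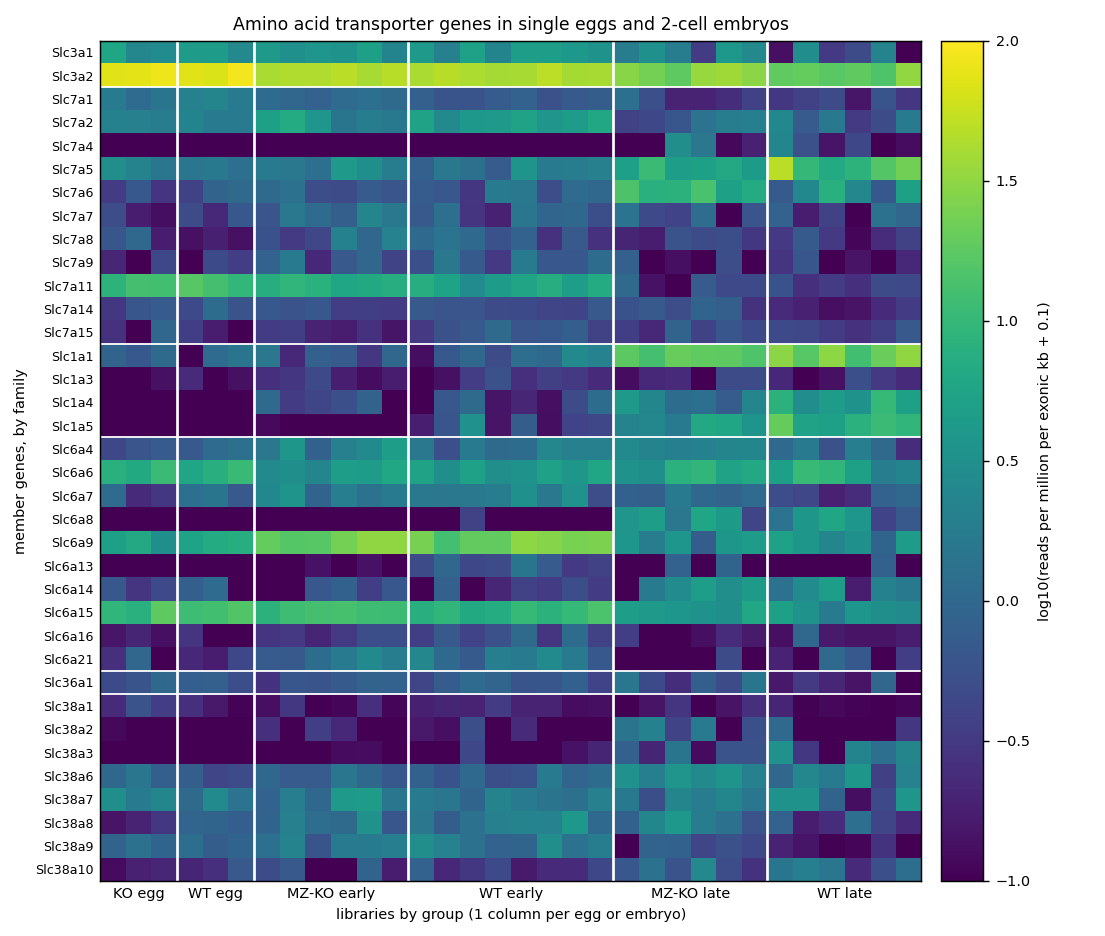
Level of the 36 detected members (rows, by family) in each of the 32 libraries (columns, by group), as log10 of RPM per exonic kb plus 0.1. Slc3a2 is bright throughout, Slc6a9 is brightest in early embryos, Slc7a11 is dark in late embryos, and Slc1a1, Slc1a5 and Slc7a6 are bright in late embryos.

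Levels were compared between genes per exonic length, as RPM per exonic kb, which the following values give. Summed over the 57 members, that level averaged 133 ± 10.3 in KO eggs and 135 ± 11.2 in WT eggs (SD, n = 3 each), 120 ± 11.7 in MZ-KO early embryos (n = 6) and 115 ± 11.8 in WT early embryos (n = 8), and 106 ± 11.4 in MZ-KO late embryos and 112 ± 30.7 in WT late embryos (n = 6 each). The sum thus moved little beside its members. Slc3a2 held 58.4% ± 1.07 of it in KO eggs and 55.5% ± 4.12 in WT eggs, 37.2% ± 3.61 in MZ-KO early embryos and 37.3% ± 4.74 in WT early embryos. In MZ-KO late embryos Slc3a2 was still first, at 28.7 ± 7.07, and Slc1a1 followed at 17 ± 2.67. In WT late embryos the leading 3 were Slc1a1 at 23.6 ± 8.32, Slc3a2 at 20 ± 6.13 and Slc7a5 at 18.8 ± 16, whose means lay within each other's SD.

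Below Slc3a2, the order in eggs was Slc6a15 at 11.7 ± 5.25 in KO eggs and 13.1 ± 1.93 in WT eggs, then Slc7a11 at 11.3 ± 2.36 in KO eggs and 13 ± 3.35 in WT eggs. These 2 neighbours, and the taurine transporter gene Slc6a6 next to them at 8.48 ± 2.32 in KO eggs and 7.95 ± 2.37 in WT eggs, lay within or near each other's spread. In early embryos Slc6a9 came second, at 23.2 ± 7.09 in MZ-KO and 23 ± 5.86 in WT embryos, above Slc6a15 at 11.5 ± 1.77 in MZ-KO and 9.14 ± 2.42 in WT embryos. The lowest early library had 16.1 for Slc6a9 in MZ-KO and 12.7 in WT embryos, and the highest had 13.3 for Slc6a15 in MZ-KO and 14.1 in WT embryos.

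Slc3a2 (ENSMUSG00000010095, chromosome 19, 8706882 to 8723369 on mm10) encodes the heavy chain of the heterodimeric transporters and fell at both steps. It was at 15.6, 16.2 and 17.9 FPKM in the KO eggs and at 15.1, 14.3 and 19 FPKM in the WT eggs. Early embryos had 8.72, 9.39 and 10.3 FPKM (lowest, median, highest) where MZ-KO and 8.35, 8.7 and 10.8 FPKM where WT. Late embryos had 3.85, 6.37 and 7.98 FPKM where MZ-KO and 3.15, 3.91 and 6.86 FPKM where WT. No early embryo overlapped the eggs and no late embryo overlapped the early embryos, within either genotype. MZ-KO early embryos differed from KO eggs by -0.75 on the log2(FPKM + 1) scale (SE 0.12, limma adjusted p = 6.6e-04). WT early embryos differed from WT eggs by -0.76 (SE 0.13, limma adjusted p = 5.7e-04). From early to late the difference was -0.58 in MZ-KO (SE 0.16, limma adjusted p = 0.0036) and -0.96 in WT embryos (SE 0.14, limma adjusted p = 9.5e-06).

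Between genotypes Slc3a2 was not called at any stage when only the groups compared were fitted. The difference of KO from WT was 0.05 in eggs (95% interval -0.41 to 0.51), 0.06 in early embryos (-0.13 to 0.24) and 0.44 in late embryos (0.02 to 0.86, limma adjusted p = 0.104). WT late library 6, at 6.86 FPKM, lay above the other 5 WT late embryos, which ranged up to 4.12 FPKM, and without it the late difference was 0.56 (limma adjusted p = 0.0361). It was 0.54 without MZ-KO late library 3 (limma adjusted p = 0.0495). With all 32 libraries in 1 fit the late difference of 0.44 was called (limma adjusted p = 0.0127). Slc3a1, the heavy chain that pairs with Slc7a9, was far lower, at 3.58 ± 1.83 RPM per exonic kb in KO eggs and 3.71 ± 1.08 in WT eggs. In late embryos it was at 2.22 ± 1.27 where MZ-KO and 0.937 ± 1.24 where WT. Its fall from early to late was called in WT embryos on the RPM scale (-2.01, SE 0.43, limma adjusted p = 3.1e-04). Slc3a1 shares 767 bp with Prepl on the other strand, and reads in the shared part cannot be told apart. Prepl had median reads of 865 in WT early and 135 in WT late embryos, where Slc3a1 had 156 and 12. The part of Prepl in the Slc3a1 values was not tested.

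**Figure D2:**
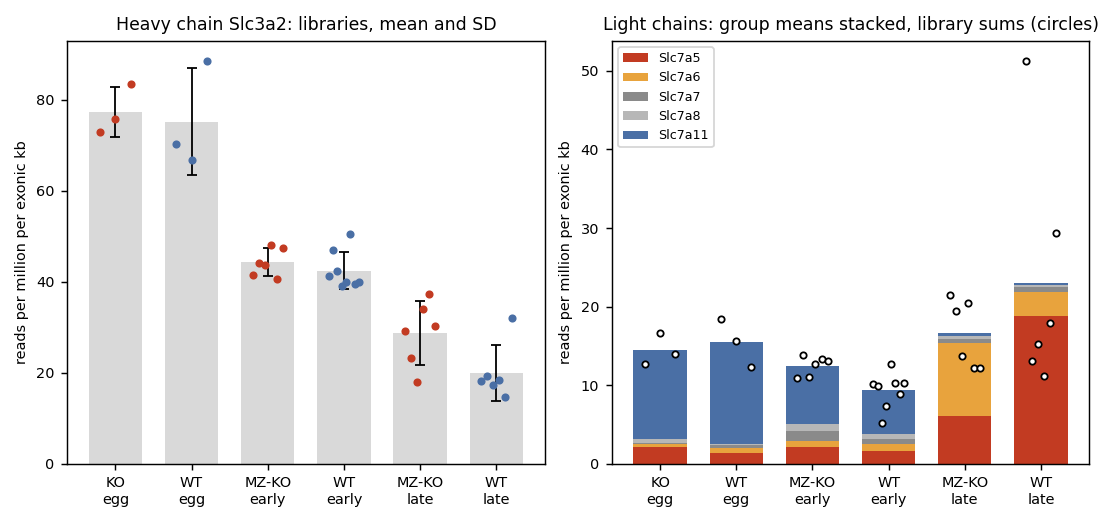
Left, level of the heavy chain gene Slc3a2 in each library (points) with group mean (bar) and SD, in RPM per exonic kb. Right, group means of the light chain genes Slc7a5, Slc7a6, Slc7a7, Slc7a8 and Slc7a11 stacked, with the sum of each library as a circle. Slc3a2 drops stage by stage, while the light chains pass from mostly Slc7a11 in eggs to mostly Slc7a5 and Slc7a6 in late embryos.

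The light chains that pair with Slc3a2 are encoded by Slc7a5, Slc7a6, Slc7a7, Slc7a8, Slc7a10 and Slc7a11, and their make-up changed almost entirely between egg and late embryo. Their summed level was 14.4 ± 2 in KO eggs and 15.5 ± 3.03 in WT eggs, 12.5 ± 1.22 in MZ-KO early embryos and 9.35 ± 2.25 in WT early embryos, and 16.6 ± 4.38 in MZ-KO late embryos and 23 ± 15.3 in WT late embryos. Over Slc3a2 in the same library, the light chains amounted to 0.187 ± 0.0284 in KO eggs and 0.212 ± 0.0641 in WT eggs, and to 0.283 ± 0.0303 in MZ-KO early embryos and 0.221 ± 0.0566 in WT early embryos. In late embryos that ratio was 0.611 ± 0.207 where MZ-KO (0.325 to 0.84) and 1.19 ± 0.824 where WT (0.613 to 2.81). These ratios describe RNA per exonic length and were not tested.

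Slc7a11 (ENSMUSG00000027737, chromosome 3, 49892526 to 50443614) spans 551089 bp, so that its FPKM was low although its reads were many. Recovered reads numbered 1614, 3285 and 3292 (lowest, median, highest) in KO eggs and 1975, 4042 and 4736 in WT eggs. Early embryos had 1408, 1855 and 2227 reads where MZ-KO and 685, 1258 and 1748 where WT. Late embryos had 0, 94.2 and 254 reads where MZ-KO and 36.1, 77.7 and 149 where WT. Late embryos lay below all early embryos in both genotypes. On the log2(RPM + 1) scale the difference of late from early was -4.52 in MZ-KO (SE 0.53, limma adjusted p = 8.4e-07) and -3.94 in WT embryos (SE 0.28, limma adjusted p = 1.7e-10). Of early from egg it was -0.60 for MZ-KO embryos against KO eggs (SE 0.19, limma adjusted p = 0.0225) and -1.25 for WT (SE 0.26, limma adjusted p = 8.0e-04). The call against KO eggs was lost without KO egg library 2 or KO egg library 3 (limma adjusted p = 0.102 to 0.124).

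Slc7a5 (ENSMUSG00000040010, chromosome 8, 121881150 to 121907694), encoding LAT1, which exchanges large neutral amino acids such as leucine, was higher in late than in early embryos. It had 0.414, 0.29 and 0.195 FPKM in the KO eggs and 0.196, 0.213 and 0.162 FPKM in the WT eggs. Early embryos had 0.159, 0.242 and 0.552 FPKM (lowest, median, highest) where MZ-KO and 0.087, 0.218 and 0.484 FPKM where WT. Late embryos had 0.587, 0.683 and 1.55 FPKM where MZ-KO and 0.932, 1.78 and 6.88 FPKM where WT. All late embryos lay above all early embryos of their genotype, and the 2 late groups overlapped. The difference of late from early was 1.38 in MZ-KO (SE 0.33, limma adjusted p = 0.0011) and 3.13 in WT embryos (SE 0.41, limma adjusted p = 8.9e-07) on the log2(RPM + 1) scale. Slc7a5 lies within Gm20388, a long gene on the other strand with median reads of 68325 in late MZ-KO and 57700 in late WT embryos, and reads in the shared part cannot be told apart.

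Between late MZ-KO and late WT embryos, Slc7a5 differed by -0.82 on the log2(FPKM + 1) scale (SE 0.30, 95% interval -1.47 to -0.17), which missed the threshold (limma adjusted p = 0.054). It passed with a pseudocount of 0.1 (-1.28, limma adjusted p = 0.0417), with median-ratio scaling (-0.90, limma adjusted p = 0.0251) and with all 32 libraries in 1 fit (-0.82, limma adjusted p = 0.00244). WT late library 1 had the 6.88 FPKM, and without it the difference was -0.56 (limma adjusted p = 0.0702). The difference passed without WT late library 3 or 4 (limma adjusted p = 0.0282 to 0.0475). On the RPM scale the difference was -1.34 and was called (SE 0.41, limma adjusted p = 0.0238), except without MZ-KO late library 6 or WT late library 6 (limma adjusted p = 0.0506 to 0.0529).

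Slc7a6 (ENSMUSG00000031904, chromosome 8, 106168857 to 106198706), encoding y+LAT2, which exchanges cationic for neutral amino acids, was higher in late MZ-KO embryos. It had 0.035, 0.088 and 0.028 FPKM in the KO eggs and 0.044, 0.122 and 0.153 FPKM in the WT eggs. Early embryos had 0.061, 0.0875 and 0.192 FPKM (lowest, median, highest) where MZ-KO and 0.031, 0.12 and 0.255 FPKM where WT. Late embryos had 0.753, 1.24 and 2.19 FPKM where MZ-KO and 0.088, 0.361 and 1.2 FPKM where WT. The late groups overlapped, with 2 of the 6 WT embryos, at 0.755 and 1.2 FPKM, inside the MZ-KO range. The difference of MZ-KO from WT was 0.73 on the log2(FPKM + 1) scale (SE 0.21, limma adjusted p = 0.018) and 1.91 on the RPM scale (SE 0.51, limma adjusted p = 0.0114), and it held without any 1 library on both. With no filter on low FPKM it was lost (limma adjusted p = 0.0578). On the RPM scale late embryos differed from early ones by 3.36 in MZ-KO (limma adjusted p = 1.1e-07) and by 1.29 in WT (limma adjusted p = 0.0228), the WT call being lost without WT late library 3 or 6 (limma adjusted p = 0.0642 to 0.0742). No annotated gene overlaps Slc7a6.

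**Figure D3:**
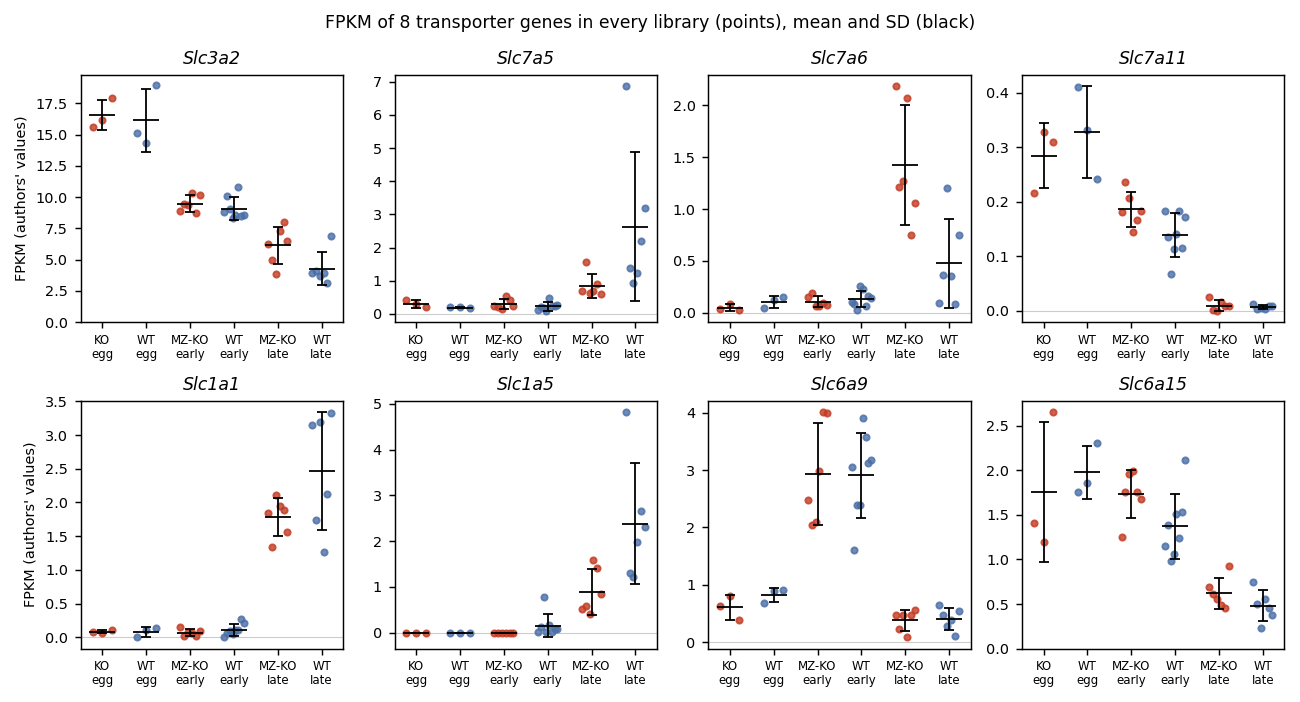
FPKM of 8 members in every library (points) with mean and SD (black), by group, KO and MZ-KO in red and WT in blue. Late WT embryos spread most for Slc7a5 and Slc1a5, where WT late library 1 is highest, and late MZ-KO embryos sit higher for Slc7a6.

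The cationic amino acid transporter genes moved in both directions. Slc7a1, encoding CAT-1, fell from egg to early embryo in WT (-1.52, SE 0.27, limma adjusted p = 2.0e-04 on the RPM scale). Slc7a2, encoding CAT-2, rose at that step in WT (1.22, SE 0.26, limma adjusted p = 7.7e-04) and was lower in late than in early embryos of both genotypes, by a difference of -1.67 in MZ-KO and -2.16 in WT embryos (limma adjusted p = 0.00577 and 4.4e-05). Slc7a1 was likewise lower in late than in early embryos, by -1.59 in MZ-KO and -1.08 in WT embryos (limma adjusted p = 0.00287 and 0.00317). In early embryos Slc7a2 stood at 3.38 ± 2.26 RPM per exonic kb where MZ-KO and 4.38 ± 1.14 where WT, against 1.86 ± 0.126 in KO eggs and 1.77 ± 0.315 in WT eggs. Slc7a3, another family member of this kind, was not detected in any group by the measure above. Slc7a4, grouped with them, was listed at 0 in all eggs and early embryos. In late embryos it had 0 to 268 recovered reads where MZ-KO and 0 to 217 where WT. It shares 5783 bp with P2rx6 on the other strand.

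Slc1a1 (ENSMUSG00000024935, chromosome 19, 28835049 to 28913960), encoding the glutamate, aspartate and cysteine transporter EAAT3, rose from early to late embryos in both genotypes. It had 0.083, 0.059 and 0.104 FPKM in the KO eggs and 0, 0.108 and 0.14 FPKM in the WT eggs. Early embryos had 0.013, 0.0715 and 0.152 FPKM (lowest, median, highest) where MZ-KO and 0.003, 0.0975 and 0.266 FPKM where WT. Late embryos had 1.34, 1.87 and 2.11 FPKM where MZ-KO and 1.27, 2.63 and 3.32 FPKM where WT. Every late embryo lay above every early embryo and egg. The difference of late from early was 1.37 in MZ-KO (SE 0.08, limma adjusted p = 1.6e-09) and 1.60 in WT embryos (SE 0.14, limma adjusted p = 1.8e-08) on the log2(FPKM + 1) scale. Between late genotypes it was -0.28 (95% interval -0.68 to 0.11, limma adjusted p = 0.248) and was not called. Slc1a1 shares 20919 bp with 4430402I18Rik on the other strand, which had median reads of 2456 in late MZ-KO and 3392 in late WT embryos. Slc1a1 itself had 2756 in late MZ-KO and 4050 in late WT embryos. The library kit does not mark strand, so reads in the shared part cannot be told apart.

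Slc1a5 (ENSMUSG00000001918, chromosome 7, 16781340 to 16798274), encoding ASCT2, an exchanger of glutamine and other neutral amino acids, was listed at 0 in all 6 eggs. In early embryos it was listed at 0 in 5 of the 6 MZ-KO libraries, with 0.005 FPKM in the other, and it ran at 0.007, 0.078 and 0.775 FPKM in WT. The highest early value was that of WT early library 3. Late embryos had 0.405, 0.714 and 1.58 FPKM where MZ-KO and 1.21, 2.14 and 4.82 FPKM where WT. The late groups overlapped between 1.21 and 1.58 FPKM. In WT the difference of late from early was 1.49 on the log2(FPKM + 1) scale (SE 0.19, limma adjusted p = 2.7e-06), and 1.58 without WT early library 3 (limma adjusted p = 8.3e-07).

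Late MZ-KO embryos were lower in Slc1a5 than late WT embryos by a difference of -0.80 on the log2(FPKM + 1) scale (SE 0.25, limma adjusted p = 0.0251) and -1.37 on the RPM scale (SE 0.39, limma adjusted p = 0.0159). On the FPKM scale the call was lost without MZ-KO late library 1, 2 or 3 or WT late library 5 (limma adjusted p = 0.0525 to 0.0564) and with no filter (limma adjusted p = 0.0805). Slc1a4, encoding the related exchanger ASCT1 of alanine, serine and cysteine, was also listed at 0 in all eggs. It had 69.3, 91.5 and 301 recovered reads (lowest, median, highest) in late MZ-KO embryos and 219, 346 and 750 in late WT embryos. It was too low for the FPKM filter. In RPM its difference was -1.51 (SE 0.42, limma adjusted p = 0.0154), called without any 1 library too.

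Slc6a9 (ENSMUSG00000028542, chromosome 4, 117834506 to 117875198), encoding the glycine transporter GLYT1, was highest in early embryos. It had 0.632, 0.811 and 0.379 FPKM in the KO eggs and 0.689, 0.883 and 0.911 FPKM in the WT eggs. Early embryos had 2.04, 2.74 and 4.01 FPKM (lowest, median, highest) where MZ-KO and 1.6, 3.09 and 3.91 FPKM where WT. Late embryos had 0.084, 0.464 and 0.559 FPKM where MZ-KO and 0.104, 0.432 and 0.644 FPKM where WT. Every early embryo lay above every egg and every late embryo, in both genotypes. Early embryos differed from eggs by 1.27 for MZ-KO over KO (SE 0.20, limma adjusted p = 6.6e-04) and 1.07 for WT (SE 0.18, limma adjusted p = 4.2e-04). Late embryos differed from early embryos by -1.49 in MZ-KO (SE 0.16, limma adjusted p = 5.8e-07) and -1.46 in WT (SE 0.14, limma adjusted p = 9.5e-08). Between genotypes the early difference was 0.01 (95% interval -0.34 to 0.35) on the log2(FPKM + 1) scale.

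Slc6a9 overlaps Ccdc24, Gm17114 and B4galt2, all on the other strand, and reads in the shared parts cannot be told apart. Ccdc24, which lies within it, had median reads of 176 in KO eggs and 314 in WT eggs, 929 in MZ-KO early and 846 in WT early embryos, and 133 in MZ-KO late and 151 in WT late embryos. Slc6a9 itself had 347 in KO eggs and 586 in WT eggs, 2197 in MZ-KO early and 1975 in WT early embryos, and 296 in MZ-KO late and 333 in WT late embryos. The part of these genes in the Slc6a9 values was not tested.

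Slc6a15 (ENSMUSG00000019894, chromosome 10, 103367783 to 103419377) encodes B0AT2, a carrier of branched-chain amino acids and proline, and fell in late embryos. It had 1.41, 1.2 and 2.66 FPKM in the KO eggs and 1.76, 1.86 and 2.31 FPKM in the WT eggs. Early embryos had 1.25, 1.76 and 1.99 FPKM (lowest, median, highest) where MZ-KO and 0.982, 1.32 and 2.12 FPKM where WT. Late embryos had 0.454, 0.582 and 0.928 FPKM where MZ-KO and 0.236, 0.482 and 0.751 FPKM where WT, below all early embryos of their genotype. The late difference from early was -0.75 in MZ-KO (SE 0.10, limma adjusted p = 8.6e-06) and -0.68 in WT embryos (SE 0.11, limma adjusted p = 2.8e-05). The WT early difference from WT eggs was -0.34 (SE 0.14, limma adjusted p = 0.0675) and was not called. It was called without WT early library 8 (limma adjusted p = 0.0181) and with median-ratio scaling (-0.47, limma adjusted p = 0.0129).

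Among the other Slc6 members, Slc6a6 was lower in early embryos than in eggs. The difference on the RPM scale was -1.18 for MZ-KO over KO (SE 0.30, limma adjusted p = 0.00572) and -0.88 for WT (SE 0.26, limma adjusted p = 0.0102), the WT call being lost without WT egg library 3 (limma adjusted p = 0.098). Slc6a8, the creatine transporter gene, was listed at 0 in all eggs, in all MZ-KO early embryos and in 7 of 8 WT early embryos. Late embryos had 17.8, 393 and 607 recovered Slc6a8 reads (lowest, median, highest) where MZ-KO and 26.9, 233 and 604 where WT. Slc6a14, a carrier of neutral and cationic amino acids, rose from early to late by 1.96 in MZ-KO (SE 0.60, limma adjusted p = 0.00751) and by 1.83 in WT embryos (SE 0.46, limma adjusted p = 0.00114).

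The Slc38 and Slc36 members were low, none above a group mean of 2.8 RPM per exonic kb. The highest of these were Slc38a6, at 2.8 ± 0.76 in MZ-KO late and 1.82 ± 1.23 in WT late embryos, and Slc38a7, a lysosomal glutamine exporter, at 2.28 ± 0.719 in KO eggs and 1.65 ± 0.89 in WT eggs. Slc38a6 rose from early to late in MZ-KO embryos (1.61, SE 0.29, limma adjusted p = 8.7e-05 on the RPM scale). Slc38a2, encoding the system A glutamine and alanine carrier SNAT2, rose at that step in MZ-KO embryos (2.02, SE 0.62, limma adjusted p = 0.00718) and was too low to be tested at it in WT embryos. Slc38a3, encoding the system N carrier SNAT3, rose in WT embryos (2.25, SE 0.53, limma adjusted p = 7.3e-04) and was too low to be tested in MZ-KO embryos. Slc36a1, a proton-coupled carrier of small amino acids, fell in WT embryos (-1.23, SE 0.36, limma adjusted p = 0.00441), and its difference in late MZ-KO from late WT embryos was 1.26 (limma adjusted p = 0.0753).

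Slc7a8, encoding the light chain LAT2, and Slc6a21 rose and then fell in WT. There, early embryos exceeded eggs by 1.64 for Slc7a8 (limma adjusted p = 0.00601) and by 1.94 for Slc6a21 (limma adjusted p = 0.00127) on the RPM scale. From early to late Slc6a21 differed by -2.29 in MZ-KO and by -1.76 in WT embryos (limma adjusted p = 2.6e-05 and 4.9e-04). Slc7a8 differed at that step by -1.10 in MZ-KO and by -0.92 in WT embryos (limma adjusted p = 0.0343 and 0.0271). The Slc7a8 call of that step was lost in 6 of the 12 fits without 1 library in MZ-KO, namely without early library 4, 5 or 6 or late library 1, 2 or 6 (limma adjusted p = 0.0571 to 0.0935). In WT it was lost without early library 1 or 2 or late library 4 or 5 (limma adjusted p = 0.0503 to 0.0807).

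**Figure D4:**
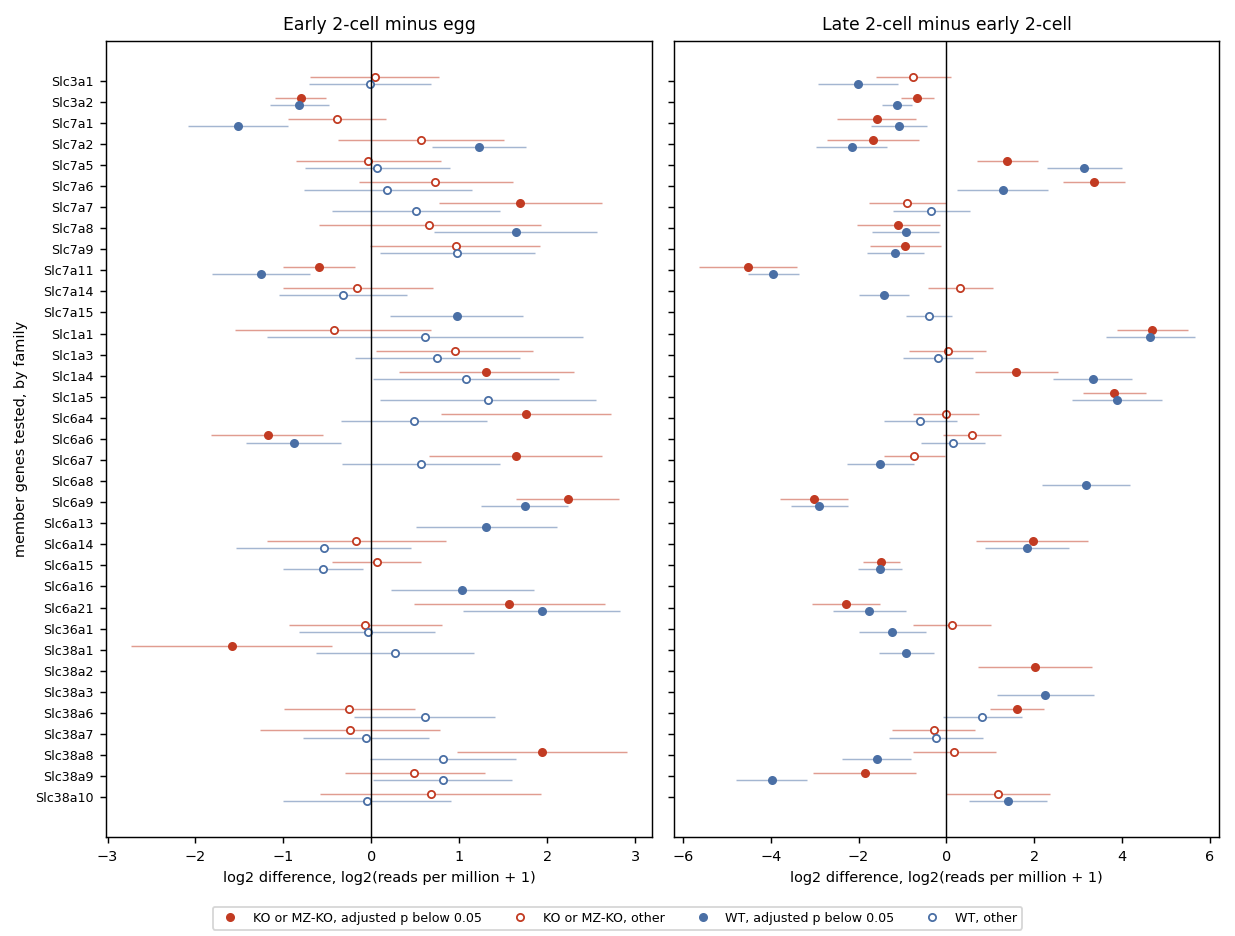
Log2 difference between stages on the log2(RPM + 1) scale, with 95% intervals, for members tested; filled points have an adjusted p below 0.05, red for KO or MZ-KO and blue for WT. From early to late, Slc1a1, Slc1a5 and Slc7a5 lie right of 0 and Slc7a11, Slc6a9 and Slc38a9 left of it, in both genotypes.

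Counts over the step from egg to early embryo were small on the FPKM scale. Of 3 members tested in each genotype, 1 rose (Slc6a9) and 1 fell (Slc3a2). Over all genes, 29.2% were called higher and 20% lower in MZ-KO early embryos than in KO eggs, and 30.4% higher and 20.9% lower in WT early embryos than in WT eggs. In RPM, 28 members were tested for MZ-KO over KO, of which 7 rose and 4 fell, against 25.2% higher and 13.6% lower over all genes. In WT 33 were tested, of which 7 rose and 4 fell, against 29.3% higher and 14.1% lower over all genes. For MZ-KO over KO the median member difference was 0.27 and that of all genes 0.24, and for WT they were 0.57 and 0.34.

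From early to late, 4 members were tested on the FPKM scale in MZ-KO embryos, of which 1 rose and 3 fell, with 48.3% of all genes called higher and 33.3% lower. In WT embryos 5 were tested, of which 2 rose and 3 fell, with 46.6% higher and 38.4% lower over all genes. In RPM, 29 were tested in MZ-KO embryos, of which 8 rose and 10 fell, against 41.4% higher and 34.2% lower over all genes. In WT embryos 32 were tested, of which 9 rose and 16 fell, against 38.5% higher and 41.1% lower over all genes. In MZ-KO embryos the median member difference was -0.01 and that of all genes 0.21, and in WT embryos they were -0.75 and -0.12. Large shares of all genes changed at this step, and these counts show nothing particular to the members.

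Between genotypes, no member was called in eggs. On the FPKM scale 2 members were tested with limma and 0 had an unadjusted p below 0.05. Over all 6607 genes 577 had one, and 0.333% were called after adjustment. In RPM, 21 were tested and 3 had an unadjusted p below 0.05. Over all 14184 genes 1250 had one, and 0.247% were called after adjustment. No member was called in early embryos either. On the FPKM scale 3 were tested and 0 had an unadjusted p below 0.05. Over all 7675 genes 1635 had one, and 3.28% were called after adjustment. In RPM, 28 were tested and 3 had an unadjusted p below 0.05. Over all 16342 genes 2929 had one, and 2.48% were called after adjustment. The 3 members were Slc7a1 (0.61), Slc7a11 (0.46) and Slc6a15 (0.36), each higher in MZ-KO early embryos, with limma adjusted p of 0.117, 0.215 and 0.269. Slc6a13 and Slc1a5 had too few reads to be tested here. Slc6a13 had 0 to 2.2 recovered reads in MZ-KO and 5.92 to 71.8 in WT early embryos. Slc1a5 had 0 to 1.87 in MZ-KO and 2.05 to 258 in WT early embryos, ranges whose near edges lie less than a read apart.

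In late embryos 6 members were tested on the FPKM scale. Slc7a6 was called higher and Slc1a5 lower in MZ-KO embryos, against 18.5% of all genes called higher and 13.4% lower. In RPM, 29 were tested, of which 5 were called higher and 3 lower, against 17.2% of all genes higher and 8.16% lower. The 3 lower members were Slc1a4, Slc1a5 and Slc7a5. The 5 higher members were Slc7a6, Slc7a14, Slc38a9, Slc38a8 and Slc6a4. Among members the median difference was 0.24, beside 0.23 over all genes, and the counts are near the shares called over all genes. With median-ratio scaling of the RPM values, an alternative added after the data were seen that moves the median of all genes, 6 of the 8 calls held. Slc1a4 then stood at -1.68, Slc1a5 at -1.56, Slc7a5 at -1.53, Slc7a6 at 1.72 and Slc7a14 at 1.40, while Slc38a8 at 1.32 and Slc6a4 at 1.01 were lost (limma adjusted p = 0.0589 and 0.0912).

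**Figure D5:**
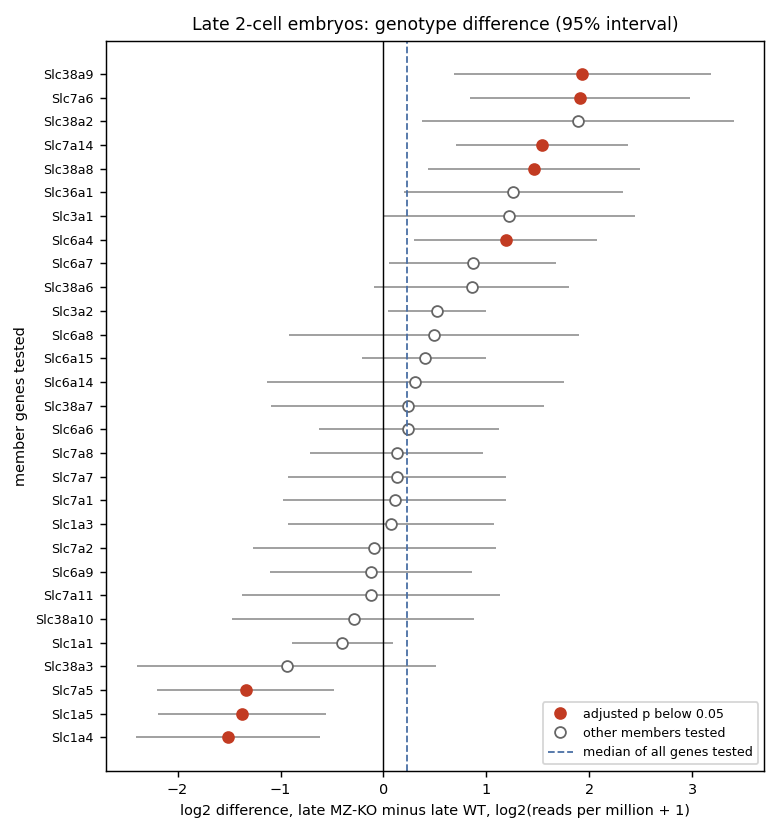
Log2 difference of late MZ-KO over late WT embryos on the log2(RPM + 1) scale for the 29 members tested, with 95% intervals. The 8 filled points have an adjusted p below 0.05, with 5 right of 0 and 3 left of it, and the dashed line is the median of all genes tested, 0.23.

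Slc38a9 encodes a lysosomal transporter that senses arginine for mTORC1. It had 0, 155 and 278 recovered reads (lowest, median, highest) in late MZ-KO embryos and 0, 11.3 and 51.6 reads in late WT embryos, after 163, 454 and 534 reads in early MZ-KO and 213, 393 and 857 reads in early WT embryos. All late WT embryos lay below all early WT embryos, while the MZ-KO ranges overlapped. The difference of late from early was -1.86 in MZ-KO (SE 0.55, limma adjusted p = 0.0058) and -3.97 in WT embryos (SE 0.39, limma adjusted p = 1.7e-08) on the RPM scale. Between late genotypes Slc38a9 differed by 1.93 (SE 0.59, limma adjusted p = 0.0239). That call was lost without MZ-KO late library 2 or 3 or WT late library 4 or 6 (limma adjusted p = 0.0512 to 0.0563). Gm47827, nested in it on the other strand, had median reads of 32.7 in late MZ-KO and 0 in late WT embryos.

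Slc7a14, a relative of the cationic amino acid transporter genes, had 18.3, 96.1 and 191 recovered reads in late MZ-KO embryos and 6.33, 21.6 and 43.2 reads in late WT embryos. Its difference of 1.54 (SE 0.40, limma adjusted p = 0.00982) was called without any 1 library too. It shares 24792 bp with Gm15496 on the other strand, which had median reads of 63 in late MZ-KO and 0 in late WT embryos. Slc38a8 differed by 1.46 (limma adjusted p = 0.0364) and the serotonin transporter gene Slc6a4 by 1.19 (limma adjusted p = 0.0468). The Slc38a8 call was lost in 7 of the 12 fits that left out 1 library (limma adjusted p = 0.0636 to 0.0835), namely without MZ-KO late library 2, 3 or 4 or WT late library 2, 3, 5 or 6. The Slc6a4 call was lost in 10 of the 12 (limma adjusted p = 0.059 to 0.101), all but those without WT late library 2 or 4. Slc38a2, encoding SNAT2, differed by 1.89 (95% interval 0.37 to 3.41, limma adjusted p = 0.0625) and was not called.

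The authors' deposited table holds their own comparison, whose groups its columns do not name. Across 9322 genes its log2 fold change had a Pearson correlation of 0.984 with the FPKM ratio of late WT to late MZ-KO embryos, and it was read in that direction, in which a negative value means higher in MZ-KO embryos. An adjusted p was given for 39 members in the authors' deposited table, of which 5 were below 0.05, against 20.6% of all genes. In the authors' deposited table the 4 positive ones were Slc7a5 at 1.77 (SE 0.44, adjusted p = 7.4e-04), Slc1a5 at 1.60 (SE 0.41, adjusted p = 0.00106), Slc1a4 at 1.76 (SE 0.47, adjusted p = 0.00206) and Slc1a1 at 0.66 (SE 0.24, adjusted p = 0.0328). The negative one in the authors' deposited table was Slc7a14 at -2.08 (SE 0.52, adjusted p = 8.7e-04). In the authors' deposited table Slc7a6 stood at -1.35 (SE 0.58, adjusted p = 0.0792) and Slc38a9 at -2.80 (SE 1.10, adjusted p = 0.0518). The authors' deposited table and the RPM fit both called Slc7a5, Slc1a5 and Slc1a4 lower and Slc7a14 higher in MZ-KO embryos. Slc1a1 passed in the authors' deposited table alone, and Slc7a6, Slc38a9, Slc38a8 and Slc6a4 passed in the RPM fit alone.

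Whether the genotype difference itself changed between early and late embryos was tested as a contrast of the 4 groups. On the FPKM scale 8 members were tested. The contrast was 0.76 for Slc7a6 (SE 0.21, limma adjusted p = 0.0124) and -0.91 for Slc7a5 (SE 0.30, limma adjusted p = 0.0352). Over all genes 12% were called higher and 8.4% lower. Slc7a6 held without any 1 of the 26 libraries, but with median-ratio scaling it was 0.59 (limma adjusted p = 0.0509). The Slc7a5 call was lost without MZ-KO early library 4 or 5, MZ-KO late library 1, 3, 4 or 6, or WT late library 6 (limma adjusted p = 0.0507 to 0.0627), and with no filter (limma adjusted p = 0.0851). Slc1a5 stood at -0.61 (limma adjusted p = 0.0992), and was called without WT early library 3 or WT late library 3 (limma adjusted p = 0.0444 to 0.0488) and with median-ratio scaling (-0.74, limma adjusted p = 0.027). Slc3a2 stood at 0.38 (limma adjusted p = 0.175), and at 0.50 without WT late library 6 (limma adjusted p = 0.0427).

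On the RPM scale 36 members were tested for that contrast, of which 5 were called higher and 1 lower, against 10.3% of all genes higher and 3.83% lower. The lower one was Slc7a5 at -1.75 (SE 0.55, limma adjusted p = 0.0294). It was lost without MZ-KO early library 4 or 5, MZ-KO late library 6, or WT late library 1 or 6 (limma adjusted p = 0.0501 to 0.0594). The higher ones were Slc7a14 at 1.74 (SE 0.42, limma adjusted p = 0.00528), Slc7a6 at 2.07 (SE 0.64, limma adjusted p = 0.0266), Slc38a9, Slc38a8 and Slc6a13. Slc7a6 was lost without WT late library 1 or 5 (limma adjusted p = 0.0507 to 0.0567), and Slc7a14 was kept in all 26 fits. Slc38a9 was lost in 13 of the 26 fits that left out 1 library (limma adjusted p = 0.0502 to 0.0737), namely without MZ-KO early library 1 or 3, MZ-KO late library 2, 3, 5 or 6, WT early library 1, 2, 6 or 8, or WT late library 3, 4 or 6. Slc38a8 was lost in 15 of them (limma adjusted p = 0.0551 to 0.0813), namely without MZ-KO early library 1, 3, 4 or 6, MZ-KO late library 2, 3 or 4, WT early library 4, 5, 6 or 7, or WT late library 2, 3, 5 or 6. Slc6a13, at 1.56 (limma adjusted p = 0.0282), was lost without MZ-KO late library 3 or 5 (limma adjusted p = 0.0523 to 0.0541). It was listed at 0 in 4 of 6 MZ-KO and 5 of 6 WT late embryos. In early embryos it had a mean of 0.657 recovered reads where MZ-KO and 27.5 where WT. Its late means were 19.3 recovered reads where MZ-KO and 6.32 where WT, so both stages enter the contrast. With median-ratio scaling of the RPM values Slc7a6 was 1.80, Slc38a9 1.92 and Slc38a8 1.56, and all of these were lost (limma adjusted p = 0.0641, 0.0516 and 0.0713), while Slc7a5 and Slc7a14 held at -2.01 and 1.54.

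Other genes of the pathway were taken from 3 lists, to be read beside all genes in late MZ-KO over late WT embryos. Of those, 18.5% were called higher and 13.4% lower on the FPKM scale (median 0.07), and 17.2% higher and 8.16% lower in RPM (median 0.23). Of 17 other carriers of amino acids in the table, 3 were tested in late embryos on the FPKM scale and none was called between genotypes, with a median difference of -0.35 over those 3. In RPM, 10 were tested and none was called, with a median of -0.03. Of 29 genes of amino acid sensing upstream of mTORC1, 16 were tested on the FPKM scale, of which 5 were higher in MZ-KO late embryos and none was lower, with a median of 0.44. In RPM, 28 were tested, of which 8 were higher and none was lower, with a median of 0.60. The 5 on the FPKM scale were Lamtor3 (1.83, SE 0.19, limma adjusted p = 5.9e-05), Lamtor4 (1.61, SE 0.24, limma adjusted p = 4.5e-04) and Lamtor5 (1.85, SE 0.22, limma adjusted p = 1.3e-04), which encode subunits of the Ragulator complex, with the Rag GTPase gene Rragc (0.97, limma adjusted p = 0.0195) and the GATOR2 gene Wdr24 (0.83, limma adjusted p = 0.028). Lamtor5 fell from early to late in WT embryos (-2.10, SE 0.22, limma adjusted p = 2.1e-07), and the difference in MZ-KO embryos was -0.06 (SE 0.18, limma adjusted p = 0.771). The contrast between those steps was 2.04 (SE 0.29, limma adjusted p = 2.6e-05).

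Of the 21 genes of the starvation response through GCN2 and ATF4, 13 rows were tested in late embryos on the FPKM scale, of which 5 were lower and 2 higher in MZ-KO embryos, with a median of -0.32. In RPM, 20 rows were tested, of which the same 5 were lower and 5 were higher, namely Phgdh, Psph, Gars, Sars and Gcn1l1, with a median of 0.21, close to the 0.23 over all genes. The lower ones, with their FPKM scale values, were Atf4 itself (-0.86, SE 0.26, limma adjusted p = 0.0247), the 2 rows named Ddit3, whose annotations overlap on the same strand (-1.88 and -1.15, limma adjusted p = 0.00149 and 0.0368), Ppp1r15a (-0.94, limma adjusted p = 0.0205) and the alanyl-tRNA synthetase gene Aars (-0.51, limma adjusted p = 0.0438). The higher ones were Phgdh (0.76, SE 0.17, limma adjusted p = 0.00474) and Psph (0.75, SE 0.12, limma adjusted p = 8.2e-04), which encode enzymes of serine synthesis. Atf4 rose from egg to early embryo in both genotypes, by 1.57 for MZ-KO over KO (limma adjusted p = 0.00117) and 1.90 in WT (limma adjusted p = 1.9e-05). From early to late it rose by 1.24 in WT (limma adjusted p = 1.2e-04) and differed by 0.11 in MZ-KO embryos (limma adjusted p = 0.632), and the contrast between these was -1.13 (SE 0.32, limma adjusted p = 0.0136).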

How the data were processed

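Per the labels' protocols, cDNA of individual eggs and embryos was made with SMART-seq v4, which does not mark the strand, and tagged with Tn5. Tools named in the submitters' processing notes are TopHat2, DESeq and DESeq2, with the build mm10, and versions are not among the sources used here. In the table the authors deposited FPKM per library, and their own comparison as log2 fold change, standard error and adjusted p-value. Low FPKM values were whole multiples of 1 read, within 0.1 read, for at least 99.4% of values in genes spanning at most 2000 bp when length was the genomic span, and for at most 85.3% with the exon length. Even read numbers made up 62.2% to 77.9% of 1 to 8 reads, so mates may have been counted singly. Reads were recovered as FPKM times span times library scale, and gene spans came from GENCODE vM21, which held 54495 of the table's genes.

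FPKM values were tested as log2(FPKM + 1), with a filter of FPKM 1, in limma 3.58.1 (trend, robust, statmod 1.5.0) under R 4.3.3, within the groups compared. The count test that the design allowed for was not used, as no counts are in the table. No column of other samples was present. Columns carry no replicate numbers, so libraries are numbered in column order and pair nothing. Each group column was matched by name, and 1 header with transposed letters by the authors' means. The fit was checked on simulated data for late MZ-KO over WT embryos. On the FPKM scale (8772 genes) it recovered 52% of genes changed by 1 and 94% of those changed by 2 in log2. On the RPM scale (16773 genes) it recovered 27% and 67%. Unchanged genes made up 2.01% of the calls on the FPKM scale and 5.05% in RPM. The simulated noise was normal, with the same spread in both groups. These rates may thus not hold for members with many zeros or unequal spread. No libraries of a group correlated above 0.931 (Spearman), and none was treated as a duplicate. Scripts ran in Python 3.11.15 with pandas 2.3.3 and numpy 2.4.6. The alternatives were a pseudocount of 0.1, no filter, a filter of FPKM 5, median-ratio scaling, the RPM scale, all 32 libraries in 1 fit and leaving out each library, and, added after seeing the data, median-ratio scaling and leaving out each library on the RPM scale. Members named are those called on the FPKM scale, the 8 with the highest level per exonic length and Slc6a9, Slc3a2, Slc7a5 and Slc7a11, which together come to 8 genes, and others are said to be named after their values were seen. The members and lists were chosen with earlier results of these data known.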

Additional observations from a re-analysis of the deposited data

Results flagged for a closer look

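Among 32 pairs of a member and a group large enough to examine, 5 had 1 library far from the others. How many pairs chance would flag was not tested. Slc3a2 was at 6.86 FPKM in WT late library 6 and at 3.15 to 4.12 FPKM in the other 5 WT late embryos. Slc7a5 was at 1.55 FPKM in MZ-KO late library 2, against 0.587 to 0.898 FPKM in the others. In WT early library 5 Slc7a5 was at 0.484 FPKM, against 0.087 to 0.272 FPKM in the others. Slc1a5 was at 0.775 FPKM in WT early library 3, against 0.007 to 0.162 FPKM in the others. It was at 0.005 FPKM in MZ-KO early library 1, where the others were listed at 0. That value is only 1.87 recovered reads and lies at the floor of detection.

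The genotype difference was called as changed between early and late embryos for 2 members on the log2(FPKM + 1) scale. These were Slc7a5, by -0.91 (limma adjusted p = 0.0352), and Slc7a6, by 0.76 (limma adjusted p = 0.0124). Over all genes 12% were called higher and 8.4% lower. Slc7a5 was lost in 7 of the 26 fits without 1 library and with no filter (limma adjusted p = 0.0851). Slc7a6 was lost with median-ratio scaling (limma adjusted p = 0.0509).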

How the results depend on the processing

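No paired analysis was possible because the columns of the table carry no replicate numbers. The counts of members called on the FPKM scale were 0 for both genotype comparisons in eggs and early embryos under every alternative run, and elsewhere followed the filter. With no filter they were 1 for MZ-KO over WT late embryos (against 2), 6 for WT early embryos over eggs (against 2), 21 for WT late over early (against 5) and 18 for MZ-KO late over early (against 4). With a filter of FPKM 5 they were 0, 1, 1 and 1 for these, 1 for MZ-KO early embryos over KO eggs and 0 for the contrast of genotype differences. On the RPM scale they were 8, 11, 25 and 18, with 11 for MZ-KO early embryos over KO eggs and 6 for that contrast. With all 32 libraries in 1 fit they were 4 for MZ-KO over WT late embryos and 8 for late over early in each genotype. Leaving out each library gave 1 to 3 for late embryos, 2 to 3 for WT early over egg, 5 to 6 for WT late over early, 4 to 5 for MZ-KO late over early and 1 to 3 for the contrast. On the RPM scale those ranges were 5 to 8 for late embryos, 8 to 13 and 6 to 13 for early over egg in WT and in MZ-KO over KO, 23 to 26 and 17 to 20 for late over early in WT and MZ-KO, and 4 to 7 for the contrast.

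Reversals touched differences near 0. Slc3a2 in eggs was -0.03 with median-ratio scaling and between -0.03 and 0.16 without 1 library, and Slc6a15 in eggs between -0.37 and 0.00. Slc6a9 in early embryos was -0.02 with median-ratio scaling and -0.07 to 0.07 without 1 library, and its contrast reached 0.05. Slc6a15 in MZ-KO early embryos over KO eggs was -0.10 with median-ratio scaling and -0.12 to 0.24 without 1 library. The contrast of Slc6a15 was 0.00 with a pseudocount of 0.1 and 0.04 on the RPM scale, where that of Slc1a1 was 0.05. The causes were not tested.

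Members with few reads limit what can be seen, and an intron-rich gene can fail the FPKM filter while well covered.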
